A study of Mus musculus with 15 samples.

Results

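The miRNAs described here are the miR-15/16 family (miR-15a, miR-15b, miR-16, miR-195a and miR-497a) and its near relatives miR-103 and miR-107 (the arms mmu-miR-103-3p and mmu-miR-107-3p), measured by small RNA sequencing in mouse midbrain. They were chosen by name, with earlier results of these data known. The names gave 9 mature arms among the 396 listed, 2 from the miR-103 and miR-107 hairpins and 7 from the miR-15/16 hairpins. The 15 samples came from C57BL/6 mice aged 6 months. Midbrain of mice labelled A30P alpha-synuclein +/+ gave 7 samples (replicates 1, 2, 3, 4, 6, 7 and 8), and wild-type midbrain (WT) gave 8 (replicates 1 to 8). A30P is a form of the presynaptic protein alpha-synuclein found in familial Parkinson's disease. No source used here names the promoter that drives the A30P form or says that each sample is a separate animal, so a p-value covers only the spread among the samples, and that spread may be technical.

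A miRNA guides an Argonaute protein to mRNAs that pair with its seed, bases 2 to 8, and lowers their translation and stability. The miR-15/16 family is known for repressing cyclins and the survival factor BCL2, and loss of the pair within the DLEU2 gene is a founding event of human chronic lymphocytic leukaemia. The hairpins of miR-103 and miR-107 sit inside genes of pantothenate kinases, the enzymes that open coenzyme A synthesis, and both miRNAs are known to repress Dicer and, in mouse liver and fat, caveolin-1. Both groups are made in many tissues, brain included, and miR-16 is also abundant in blood cells.

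The mature sequences, from RefSeq (GRCm38.p6), are shown because the seed is what separates these groups. All 9 arms were matched by name. Each is written from its 5′ end with the seed in capitals. miR-103-3p and miR-107-3p carry 1 seed.
miR-103-3p: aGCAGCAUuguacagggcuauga
miR-107-3p: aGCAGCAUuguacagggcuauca
Another seed is shared by the 5p arms of the miR-15/16 hairpins.
miR-16-5p: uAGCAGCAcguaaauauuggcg
miR-15a-5p: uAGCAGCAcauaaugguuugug
miR-15b-5p: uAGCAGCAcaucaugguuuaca
miR-195a-5p: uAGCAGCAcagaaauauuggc
miR-497a-5p: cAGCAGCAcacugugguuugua
The opposite arms of miR-15b and miR-195a have seeds of their own, so they belong to the family by hairpin and not by seed.
miR-15b-3p: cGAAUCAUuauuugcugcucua
miR-195a-3p: cCAAUAUUggcugugcugcucc

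The letters AGCAGC begin at base 1 in miR-103-3p and miR-107-3p and at base 2 in the 5 arms of the miR-15/16 seed. Read on the miRNA strand only, they lie within bases 1 to 8 of 0.774% of the 1679 mature miRNAs in the RefSeq table and of 2.02% of the 347 listed arms matched to it, and the 7 listed arms that hold them are all members. miR-103-3p and miR-107-3p are alike at 22 of 23 bases and differ by G22C, counted from the 5′ end of miR-103-3p. miR-16-5p and miR-195a-5p differ by G10A and U11G over the 21 bases compared, and miR-195a-5p is 1 base shorter. No source used here says how the authors split reads between such close sequences, so the division between miR-103-3p and miR-107-3p is uncertain.

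Positions are from GENCODE vM21 on GRCm38, while the submitters' processing notes name mm9. miR-103-3p has 2 source hairpins with the same mature sequence. Mir103-1 lies at chr11:35782396-35782481 (plus strand) in an intron of Pank3, and Mir103-2 at chr2:131288052-131288137 (plus strand) in an intron of Pank2. Mir107 lies at chr19:34820687-34820773 (minus strand) in an intron of Pank1. miR-16-5p also has 2 hairpins with 1 mature sequence. Mir16-2 (chr3:69009902-69009996, plus strand) lies beside Mir15b (chr3:69009772-69009835) in an intron of Smc4, a condensin subunit gene. Mir16-1 (chr14:61631880-61631972, minus strand) overlaps an exon of the noncoding RNA gene Dleu2, and Mir15a (chr14:61632027-61632110) an intron of it. Mir497 (chr11:70234717-70234800) and Mir195a (chr11:70235042-70235135) lie on the plus strand, where no gene is annotated around them. Reads of miR-103-3p and miR-16-5p cannot be assigned to either of their hairpins.

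The values are read counts per miRNA divided by a size factor per library, called normalized counts here, and whole reads were recovered from them. A30P libraries held 21731 to 3500431 reads of listed miRNAs (median 92827), and WT libraries 724813 to 9762286. The 4 A30P libraries under 100000 reads were replicates 1, 2, 4 and 7, and the shallowest WT libraries were replicates 1 and 8. Column names carried a D in every A30P library and a C in every WT library. No source used here explains the letters, and a batch marked by them cannot be told apart from the genotype. miR-148a-3p and miR-151-3p together took 13.9% to 80.1% of an A30P library's reads and 0.842% to 2.51% of a WT library's. Shares are therefore also given over the reads left without these 2. The neuronal miR-124-3p had reads in 6 of 7 A30P libraries and averaged 119 normalized counts in A30P and 1405 in WT. Of 6 listed neuronal arms, limma called 5 lower and 1 higher, miR-129-5p (mean 8859 in A30P and 4749 in WT).

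In A30P midbrain the highest medians were those of miR-195a-3p (140 normalized counts, 8 reads in replicate 1) and miR-103-3p (102.5, 2 reads in replicate 7). miR-195a-3p had more reads than miR-103-3p in 4 of 7 libraries. In replicate 6, the deepest, it had 441 against 4874, so this pair could not be ordered. The median of miR-16-5p was 2.57, and the other 6 arms had a median of 0. The superfamily as a whole had 92.0 to 1641 RPM, relative to all listed reads, in A30P (median 236) and 2025 to 6120 in WT (median 4667). Without miR-148a-3p and miR-151-3p in the total it had 391 to 2003 RPM in A30P (median 703) and 2045 to 6191 in WT (median 4720). The ranges do not overlap on either scale, and on the second they nearly meet. A bulk library cannot tell fewer cells of a type from less RNA per cell, which holds for every level below.

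miR-103-3p made up 24.0% to 100% of all superfamily reads in an A30P library (the 100% being 2 reads in replicate 4), against 80.9% to 93.1% in a WT library. By median it ranked 106th of the 396 miRNAs in A30P and 38th in WT. By WT median the order was miR-103-3p (2698 normalized counts), miR-16-5p (310.5), miR-107-3p (184), miR-195a-5p (40.2), miR-15b-5p (16.3), miR-195a-3p (16.1), miR-497a-5p (6.73), miR-15b-3p (4.42) and miR-15a-5p (3.86). The arms are 21 to 23 bases long, so these levels are close to per-length levels, though capture differs between sequences. miR-16-5p was above miR-107-3p in 7 of 8 WT libraries, and miR-195a-5p above miR-15b-5p in 7 of 8, with replicate 8 the exception in both. miR-15b-5p was above miR-195a-3p in 4 of 8 WT libraries, and miR-15b-3p above miR-15a-5p in 4 of 8 with both at 0 reads in replicate 1, so neither pair could be ordered.

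**Figure D1:**
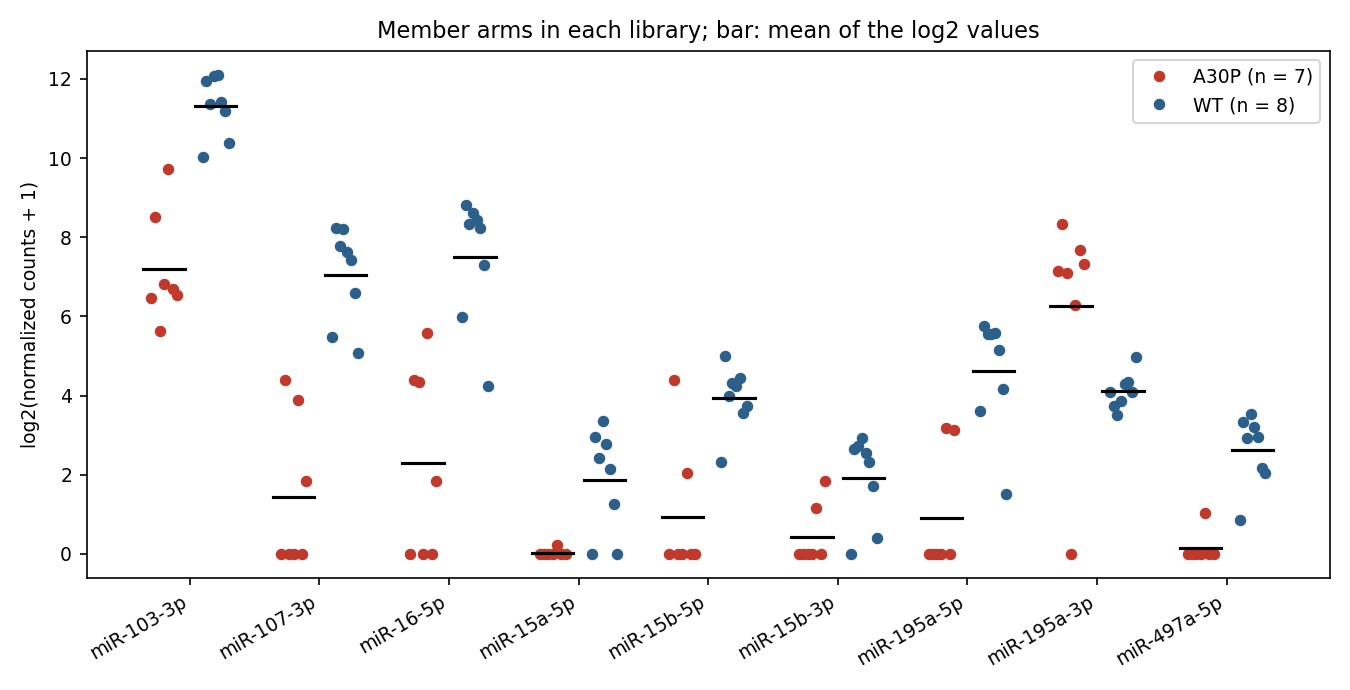
Each point is the log2(normalized counts + 1) of a member arm in a library, with A30P (7 libraries) left of WT (8 libraries) and a black bar at the mean of the log2 values. For miR-103-3p and miR-107-3p all A30P points lie below all WT points, while 6 of the 7 A30P points of miR-195a-3p lie above all WT points and the remaining one is at 0.

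miR-103-3p, the Pank2- and Pank3-hosted arm, was strongly lower in A30P midbrain. It had a lowest value of 49.0, a median of 102.5 and a highest of 849 normalized counts in A30P, against 1045, 2698 and 4408 in WT. The highest A30P library, replicate 6, stayed below the lowest WT library, replicate 1, so the groups did not overlap. The mean was 236 ± 289 in A30P (normalized counts, SD, n = 7), against 2843 ± 1284 in WT (SD, n = 8), which is 12.0-fold lower. Without A30P replicate 6 the A30P mean was 134, which is 21.2-fold lower. limma on log2(value + 1) gave a log2 fold change of -4.11 (SE 0.56, adjusted p = 5.0e-06). With miR-148a-3p and miR-151-3p left out of the total, the means were 556 RPM in A30P and 3962 RPM in WT, 7.13-fold lower.

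The A30P values of miR-103-3p rest on few reads outside replicate 6. Replicates 1, 4 and 7 held 5, 2 and 2 reads, and replicates 2, 3 and 8 held 18, 23 and 36, against 4874 in replicate 6. At the WT mean share, with the 2 dominant miRNAs set aside, replicate 3 would have held 665 reads and replicate 8 would have held 586. The 4 libraries under 100000 reads would together have held 203, and they held 27. Fewer reads were counted than the WT mean share gives at each of these depths. The lowest WT share, on the same total, gives 303 reads in replicate 3, 267 in replicate 8 and 5443 in replicate 6. In the 4 libraries under 100000 reads it gives 92.7 together. In WT, too, the values moved with depth. The shallowest libraries, replicates 1 and 8, had 1045 and 1328 normalized counts, while the other 6 had 2347 to 4408. The part of depth in the result was not tested.

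miR-107-3p, the Pank1-hosted arm, fell as well. It had a lowest value of 0, a median of 0 and a highest of 20.1 normalized counts in A30P, against 32.6, 184 and 301 in WT, again without overlap of the values. In A30P replicates 1, 4 and 7, however, 0 reads allow up to 52.6, 169 and 154 normalized counts (3 reads), all within the WT range. The mean was 5.23 ± 8.30 in A30P (SD, n = 7), against 169 ± 105 in WT (SD, n = 8), with a log2 fold change of -5.61 (SE 0.84, limma adjusted p = 1.3e-05). A30P reads were 80 in replicate 6 and 1 each in replicates 2 and 8, and without replicate 2 the A30P mean was 2.75. Replicate 3 held 0 reads, where the WT mean share without the 2 dominant miRNAs gives 38.0, and replicate 8 held 1, where it gives 33.5.

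Since a single member had reads in all 15 libraries, the planned log2 ratios between members were replaced by read shares, a choice made after seeing the data. miR-107-3p took 0% to 5.26% of the reads of miR-103-3p and miR-107-3p in A30P (median 0%) and 2.40% to 7.58% in WT (median 5.08%). The ranges overlap, and 4 of the A30P shares are 0. The mean share was 1.37% ± 2.02 in A30P (SD, n = 7) and 5.20% ± 1.82 in WT (SD, n = 8), -3.84 percentage points (exact permutation test, two-sided, p = 0.00404, adjusted p = 0.00606 over 3 shares). A30P replicates 1, 4 and 7 held 5, 2 and 2 reads of the pair, where 0 reads of miR-107-3p are likely at the WT mean share. The test weighs all libraries alike, so its p-value cannot tell a lower share from few reads. The share of A30P replicate 6 was 1.61% of 4954 reads (exact 95% interval 1.28% to 2.01%). WT replicate 8, the lowest of its group, had 2.40% of 4339 reads (1.96% to 2.90%), so their intervals overlap. A30P replicates 4 and 7 had 2 reads of the pair each, which allows a share of up to 84.2%. These intervals cover counting error only, since PCR copies of a molecule are not independent.

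miR-16-5p was the main member of the miR-15/16 seed, and it fell in A30P midbrain. It had 0, 2.57 and 47.0 normalized counts as lowest, median and highest in A30P, against 17.9, 310.5 and 452 in WT. The groups overlap through WT replicate 8, at 17.9, and the next lowest WT library, replicate 1, had 62.9. The mean was 12.7 ± 17.6 in A30P (SD, n = 7), against 256 ± 158 in WT (SD, n = 8), 20.1-fold lower, with a log2 fold change of -5.19 (SE 1.01, limma adjusted p = 0.00016). Without A30P replicate 6 the mean was 6.97 in A30P, 36.6-fold lower. With the 2 dominant miRNAs set aside the mean share was 11.6-fold lower, and 17.7-fold lower without A30P replicate 6. The lowest WT share on that total gives 7.40 reads in A30P replicate 3, where 9 were counted. It gives 133 in replicate 6, where 270 were counted, and 6.53 in replicate 8, where 1 was counted. In the authors' deposited table its log2 fold change was -1.29 and did not pass (adjusted p = 0.106).

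Set against miR-103-3p, no difference of miR-16-5p between the genotypes passed the test. Its share of the reads of both was 0% to 28.1% in A30P (mean 5.91% ± 10.1, SD, n = 7) and 1.33% to 10.8% in WT (mean 7.48% ± 3.12, SD, n = 8), with p = 0.793 (exact permutation test, adjusted p = 0.793). The highest A30P share was 9 of 32 reads in replicate 3 (exact 95% interval 13.7% to 46.7%). Without that library the difference was -5.28 percentage points (exact permutation test, p = 0.00799), and with replicates 3, 6 and 8 alone it was 4.55 percentage points, higher in A30P (exact permutation test, p = 0.497). In A30P replicate 6, which has most of the A30P reads, the share was 5.25% of 5144 reads, within the WT range.

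miR-15a-5p and miR-15b-5p, which share hairpin clusters with miR-16, were low in both groups. miR-15b-5p had reads in 2 of 7 A30P libraries, 1 in replicate 2 and 18 in replicate 6, and averaged 3.32 ± 7.49 normalized counts in A30P (SD, n = 7) and 16.3 ± 8.00 in WT (SD, n = 8). Its log2 fold change was -3.03 (SE 0.66, limma adjusted p = 0.00045). The single read of replicate 2 is worth 20.1 normalized counts, which overlaps the WT range of 4.03 to 31.1, and without that library the A30P mean was 0.522.

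miR-15a-5p had 1 read in all 7 A30P libraries, in replicate 6, and 0 to 9.29 normalized counts in WT (median 3.86), with 0 reads in replicates 1 and 8. Its log2 fold change of -1.83 (SE 0.46, limma adjusted p = 0.0015) depends on the pseudocount, being -3.93 with 0.1 and -0.43 with 10. The authors' deposited table did not call it (-1.52, adjusted p = 0.224), nor did edgeR with TMM scaling on A30P replicates 3, 6 and 8 alone (-3.63, adjusted p = 0.0731). At the WT mean share without the 2 dominant miRNAs the 4 shallow A30P libraries would have held 0.254 reads of it in total, so a lower level was not detectable in them. In replicate 6 the same share gives 14.9 reads, and 1 was counted (0.286 RPM, Wilson 95% interval 0.0504 to 1.62, against a WT mean of 4.89). miR-15b-3p, with 8 A30P reads (7 in replicate 6) and a log2 fold change of -1.48 (limma adjusted p = 0.0079), was also thinly covered. With A30P replicates 3, 6 and 8 alone, miR-15b-3p did not pass (log2 fold change -0.91, limma adjusted p = 0.257), nor did it in limma with TMM scaling (-0.86, adjusted p = 0.0784).

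**Figure D2:**
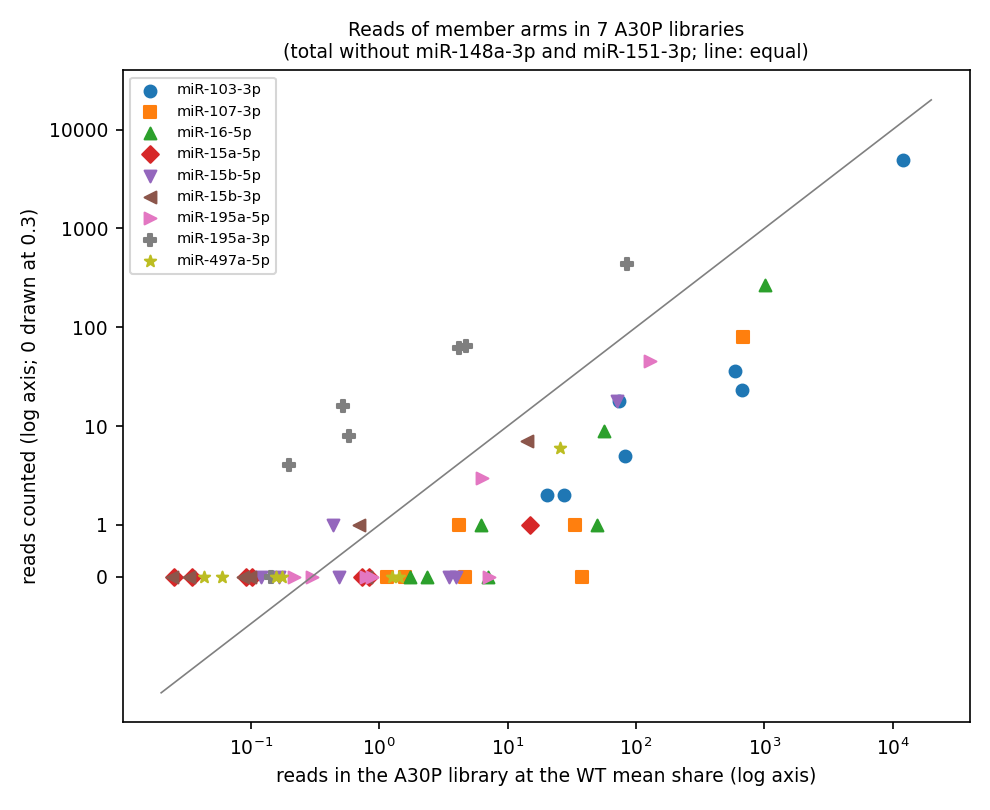
For each member arm and A30P library, the reads counted (vertical, log axis, 0 drawn at 0.3) are plotted against the reads that the WT mean share gives at that library's total without miR-148a-3p and miR-151-3p (horizontal, log axis). Points of miR-195a-3p lie above the line of equality in the 6 libraries with reads, those of miR-103-3p lie below it in all 7, and each point at 0, apart from miR-107-3p in replicate 3, has under 10 reads on the horizontal axis.

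The clustered miR-195a and miR-497a hairpins gave the 1 member arm with a higher mean in A30P, miR-195a-3p, and its call depended on the fit. It had 0, 140 and 321.5 normalized counts as lowest, median and highest in A30P, against 10.5, 16.1 and 30.4 in WT. The 6 A30P libraries with reads, from 76.8 in replicate 6 upward, all lay above the highest WT library, and A30P replicate 4 held 0 reads, a count that allows up to 169 normalized counts (3 reads). The mean was 149 ± 101 in A30P (SD, n = 7), against 17.1 ± 6.18 in WT (SD, n = 8), 8.68-fold higher. Its log2 fold change of 2.15 (SE 0.98) did not pass limma (adjusted p = 0.0508). Without A30P replicate 4 it was 3.20 and passed (limma adjusted p = 7.0e-05).

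Other fits of miR-195a-3p did pass. edgeR's quasi-likelihood test on the recovered reads with TMM scaling gave 4.07 (adjusted p = 2.2e-06), the authors' deposited table gave 2.18 (adjusted p = 5.4e-05), and limma on A30P replicates 3, 6 and 8 alone 2.79 (adjusted p = 0.00047). Relative to all listed reads it was 1.56 in limma and did not pass (adjusted p = 0.129). Reads were 8, 16, 64, 0, 441, 4 and 62 in A30P replicates 1, 2, 3, 4, 6, 7 and 8. The WT mean share, without the 2 dominant miRNAs, gives 4.73 reads in replicate 3 and 4.17 in replicate 8.

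Its partner arm, miR-195a-5p, fell. It had reads in 2 of 7 A30P libraries, 46 in replicate 6 and 3 in replicate 8, and averaged 2.25 ± 3.84 normalized counts in A30P (SD, n = 7) and 32.1 ± 19.4 in WT (SD, n = 8). Without replicate 6 or replicate 8 the A30P mean was 1.29 or 1.33. The log2 fold change was -3.72 (SE 0.75, limma adjusted p = 0.00023). With TMM scaling, edgeR did not call it (-1.28, adjusted p = 0.0881). Neither did the authors' deposited table (-0.96, adjusted p = 0.317). WT replicate 8, at 1.88 normalized counts, lay below A30P replicates 6 and 8, and WT replicate 1 had 11.3 while the other 6 WT libraries had 16.9 to 53.5.

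The balance between the miR-195a arms does not depend on scaling. The hairpin (RefSeq, GRCm38.p6, chr11:70235042-70235135, plus strand) is shown with both mature arms in capitals, the 5p arm first.
Mir195a: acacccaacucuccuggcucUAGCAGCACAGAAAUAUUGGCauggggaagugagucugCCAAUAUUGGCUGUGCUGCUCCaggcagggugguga
The 5p arm took 0% to 9.45% of the reads of both arms in the 6 A30P libraries with reads of either (median 0%), and 5.83% to 81.5% in WT (median 67.8%). The ranges overlap only through WT replicate 8, as the next lowest WT library, replicate 1, had 41.2%. The mean was 2.34% ± 3.94 in A30P (SD, n = 6), against 59.3% ± 26.0 in WT (SD, n = 8), -56.9 percentage points (exact permutation test, two-sided, p = 0.00133, adjusted p = 0.0040 over 3 shares).

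The shares of single libraries carry counting error. A30P replicate 6 had 46 of 487 reads on the 5p arm (9.45%, exact 95% interval 7.00% to 12.4%) and replicate 3 had 0 of 64 (up to 5.60%). WT replicate 3, with 4540887 listed reads against 3500431 in A30P replicate 6, had 255 of 313 (81.5%, 76.7% to 85.6%), the highest WT share. WT replicate 7, with 4870645 listed reads, had 132 of 257 (51.4%, 45.1% to 57.6%). WT replicate 8 had a share of 5.83% (6 reads of the 5p arm and 97 of the 3p arm, 2.17% to 12.2%), within the A30P range. WT replicates 8 and 1, which had the lowest WT shares (5.83% and 41.2%), were also the shallowest WT libraries (1326236 and 724813 listed reads). The part of depth in the arm balance was not tested. Among 54 hairpins with both arms listed and reads in at least 6 A30P and all 8 WT libraries, the 5p share differed by -56.9 to 80.4 percentage points (median -0.71), and that of miR-195a was the lowest. This rank was looked up after the value was seen. In size, 5 of the 54, miR-195a included, differed by at least as much.

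**Figure D3:**
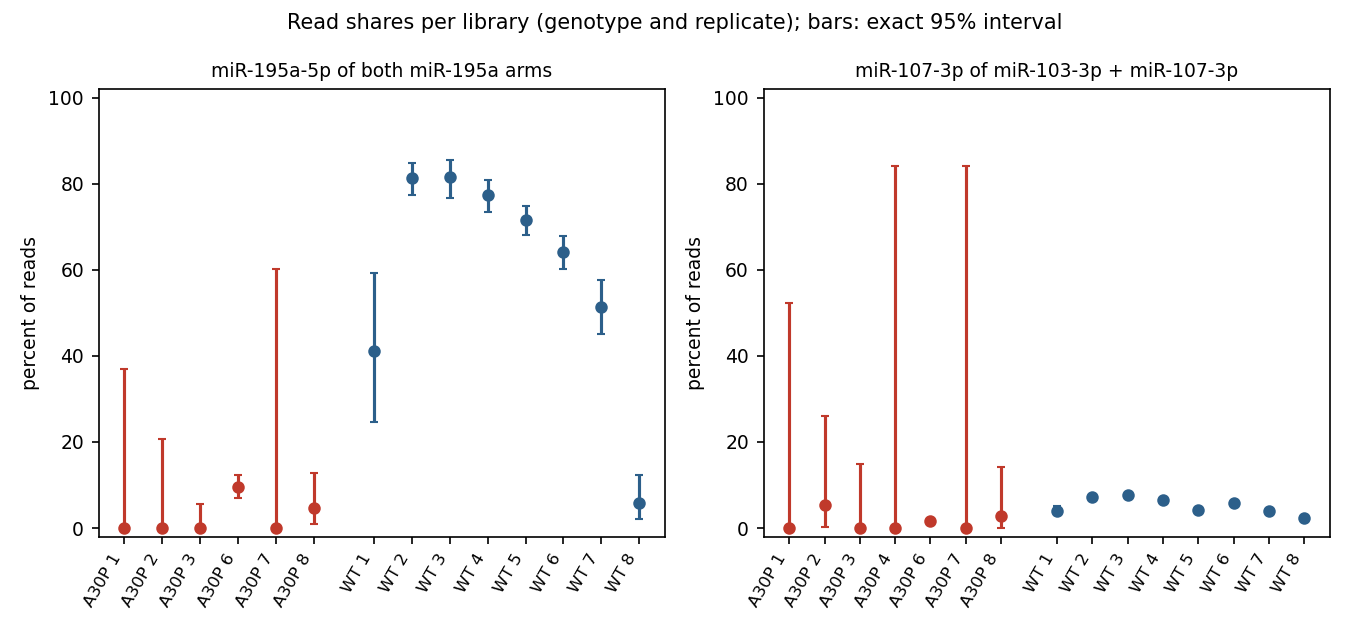
Points give the share of reads in each library, in percent, with the exact 95% interval: miR-195a-5p of both miR-195a arms (left) and miR-107-3p of the miR-103-3p and miR-107-3p reads (right), with A30P libraries left of WT libraries. The 5p share of miR-195a is at most 9.45% in A30P and at least 41.2% in WT outside replicate 8, and intervals in A30P libraries with few reads are wide.

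miR-497a-5p, transcribed next to miR-195a, had 6 reads in A30P, all in replicate 6, where the WT mean share without the 2 dominant miRNAs gives 25.4. Its level was 1.04 normalized counts there and 0.806 to 10.7 in WT. The fitted log2 fold change was -2.48 (SE 0.39, limma adjusted p = 2.0e-05). The 4 shallow A30P libraries would have held 0.433 reads of it at that share, so a lower level was not detectable in them. DESeq2 with the deposited size factors did not call it (-1.51, adjusted p = 0.209).

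Counted over the members, 8 of 9 arms fell and 0 rose by limma at adjusted p 0.05. Over all 396 miRNAs 71.0% were called lower and 8.33% higher, so a high share of lower calls is general to the table. The members' median log2 fold change was -3.03, and that of all miRNAs was -2.57. With A30P replicates 3, 6 and 8 alone 7 members fell and 1 rose, against 52.3% and 7.83% of all miRNAs. In edgeR with TMM scaling 6 members could be tested. miR-103-3p, miR-107-3p, miR-16-5p and miR-15b-5p fell and miR-195a-3p rose, against 35.5% lower and 19.5% higher among the 318 miRNAs tested. The authors' deposited table called miR-103-3p, miR-107-3p and miR-15b-5p lower and miR-195a-3p higher, against 34.1% and 9.85% of all listed. In limma, scaling to the total without miR-148a-3p and miR-151-3p called 8 members lower and 1 higher (62.9% and 10.6% of all miRNAs), TMM scaling 7 and 1 (55.1% and 11.4%), and a pseudocount of 10 called 8 and 1 (68.7% and 9.34%). A mean of at least 10 left 6 members, of which 5 were lower and 0 higher (67.6% and 10.5%), and a block for the replicate number gave 8 and 0 (67.7% and 7.07%). With deposited size factors edgeR called 5 of 6 lower and 1 higher (61.9% and 13.5%), and DESeq2 called 5 of 7 lower and 1 higher (49.2% and 12.1%). edgeR with TMM scaling on A30P replicates 3, 6 and 8 alone called 4 of 9 lower and 1 higher (22.2% and 13.6%). Groups without overlap were seen for 2 of 9 arms, both lower, where 23.7% of all miRNAs had them in that direction and 4.04% in the other.

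The size of each fall depended on the fit, and its sign did not in any fit run. edgeR on TMM-scaled reads gave a log2 fold change of -2.35 for miR-103-3p (adjusted p = 0.00062) and -3.27 for miR-107-3p (adjusted p = 0.00019). The authors' deposited table gave -1.63 (adjusted p = 0.0199) for miR-103-3p, and -2.71 (adjusted p = 0.000104) for miR-107-3p. The median of all miRNAs was -2.57 with the deposited scaling. In limma it was -1.83 with TMM scaling and -2.92 relative to all listed reads. Under these 2 scalings miR-103-3p had -2.99 and -4.79.

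**Figure D4:**
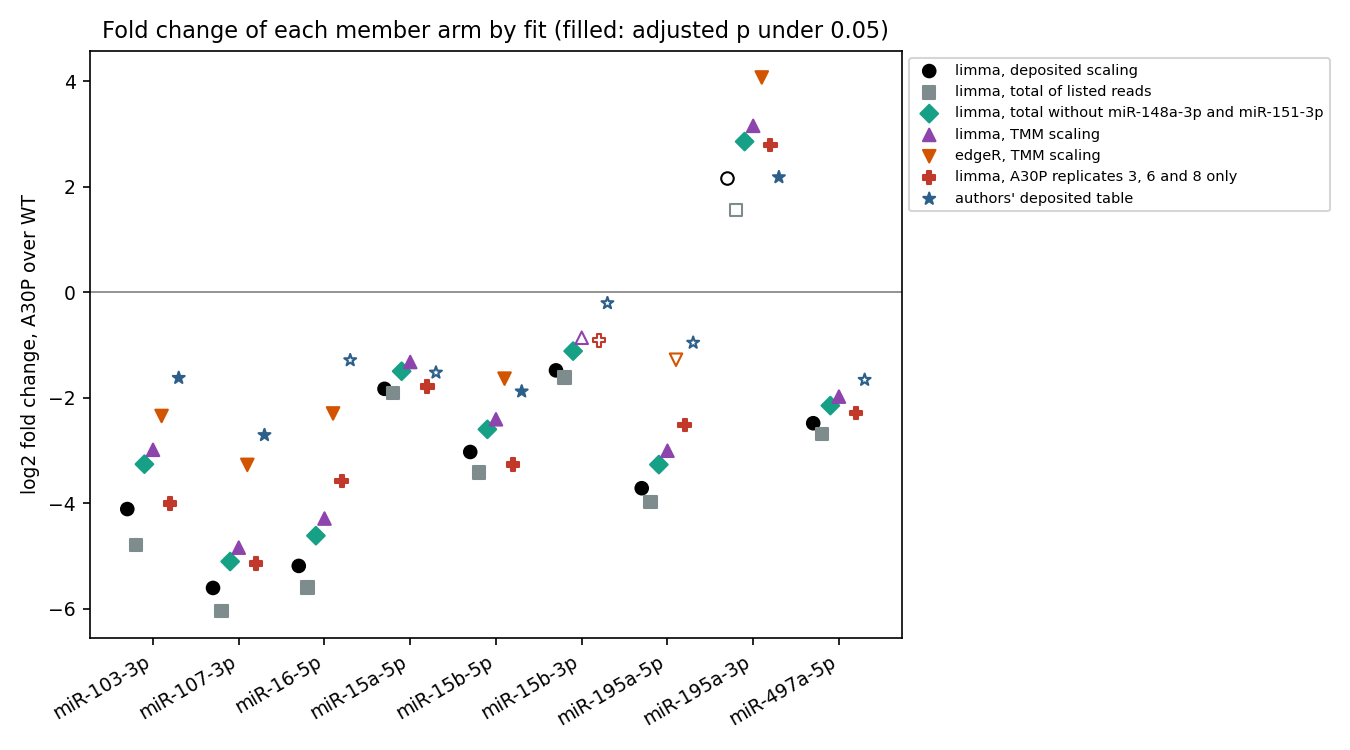
The log2 fold change of A30P over WT (vertical) is given for each member arm under 7 fits, filled where the adjusted p was under 0.05. Each fit that tested an arm (edgeR tested 6 of the 9) places miR-195a-3p above 0 and the others below it, with a span from -4.79 to -1.63 for miR-103-3p.

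A30P replicate 6, with 3500431 reads, was deeper than WT replicates 1 and 8, and the other 6 A30P libraries were shallower than every WT library. Compared with it alone, as a description of that library, all 8 WT libraries were higher for miR-103-3p (849 normalized counts in A30P replicate 6, 1045 to 4408 in WT), miR-107-3p (13.9, against 32.6 to 301) and miR-15b-5p (3.13, against 4.03 to 31.1). For miR-16-5p, miR-195a-5p and miR-497a-5p 7 of 8 WT libraries were higher, and for miR-15a-5p and miR-15b-3p 6 of 8. None of the 8 was higher for miR-195a-3p. For 5 of the 9 arms the level of A30P replicate 6 lay within the WT range.

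Likeness to miR-103-3p was measured as the SD of the log2 ratio within libraries, over all 15 of them, among the 91 other miRNAs with reads in each. miR-30c-5p was the closest, with an SD of 0.36, against a median of 2.53 over the 91. Next came miR-30d-5p, with an SD of 0.55, and miR-26a-5p, with 0.67. The SD was 0.73 for miR-191-5p and 0.75 for miR-181a-5p. Their log2 fold changes by limma were -4.46 for miR-30c-5p, -3.83 for miR-30d-5p, -4.47 for miR-26a-5p, -5.19 for miR-191-5p and -4.11 for miR-181a-5p, beside -4.11 for miR-103-3p. For miR-16-5p, whose zeros make the ratio depend on an added 0.5 reads, the closest were miR-27b-3p (1.06), miR-298-5p (1.08), miR-30d-5p (1.09), miR-103-3p (1.12) and let-7g-5p (1.15), against a median of 2.35 over 92. These values share libraries and depth, and are descriptions.

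The X-linked miR-322 and miR-503 hairpins, whose 5p arms carry seeds related to that of miR-15/16, were listed here by their 3p arms. miR-503-3p had 0 to 1.04 normalized counts in A30P and 2.95 to 10.5 in WT. Its log2 fold change was -2.71 (SE 0.33, limma adjusted p = 1.3e-06). miR-322-3p had 0 to 205 in A30P, the highest from 4 reads in replicate 7, and 4.70 to 34.1 in WT, with a log2 fold change of -2.29 (SE 0.98, limma adjusted p = 0.0400).

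Marker miRNAs of several cell types also differed between the genotypes. miR-16 is abundant in red cells. Of 4 listed erythroid arms 1 rose and 2 fell, and their summed level was 228 to 2459 normalized counts in A30P and 329 to 1584 in WT. miR-451a, the defining one, averaged 602 normalized counts in A30P and 78.5 in WT, with a log2 fold change of 2.03 (limma adjusted p = 0.0327). The 2 that fell were miR-144-5p (-1.99, limma adjusted p = 0.00126) and miR-486a-3p (-2.78, limma adjusted p = 0.00196). Of 6 neuronal arms 1 (miR-129-5p) rose and 5 fell (summed level 12643 to 60941 in A30P and 47992 to 180725 in WT). Of 3 oligodendrocyte arms 0 rose and 2 fell (1298 to 5550 in A30P and 4772 to 11074 in WT). Of 3 vascular arms 1 rose and 2 fell (4628 to 18851 in A30P and 2918 to 15953 in WT). The arm that rose was miR-143-3p (mean 10046.5 in A30P and 3126 in WT). Those that fell were miR-126a-3p (1201 and 6279) and miR-145a-5p (11.0 and 77.8). Of 2 choroid plexus arms 0 rose and 1 fell (summed level 56.4 to 1049 in A30P and 1029 to 4513 in WT). Of 6 microglial markers 0 were matched, so that list gives no value. The part of any of these in the members' values was not tested.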

How the data were processed

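Small RNA libraries of total RNA from 15 midbrain samples (7 A30P, 8 WT) were prepared with a TruSeq kit per the labels' protocols, while per the file headers the columns begin with NEB. Per the submitters' processing notes the build was mm9 and DESeq was used; no source used here names the aligner, counter or miRNA annotation. Columns named CT were read as WT and matched by number. The authors deposited signal values that are read counts divided by a size factor per library; 100% were whole multiples of 1 step per library (within 1e-05). The authors' deposited log2 fold changes, p-values and adjusted p-values are printed only under that name, and the deposited group means, a score of unstated scale, were not used.

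limma 3.58.1 (trend, robust) was fitted to log2(value + 1) of all 396 miRNAs (a mean of 1 or more in a group was required, and none was dropped), with Benjamini-Hochberg adjustment over all, in R 4.3.3. The added 1 shrinks fold changes of low miRNAs. In shallow A30P libraries, where 1 read is worth up to 56.4 normalized counts, a 0 lies below that level and can enlarge a fall. With deposited size factors miR-107-3p had a log2 fold change of -4.63 in edgeR and -4.52 in DESeq2, against -5.61 in limma. edgeR 4.0.16 and DESeq2 1.42.0 were run on recovered reads. Planned log2 ratios between members were replaced, after seeing the data, by read shares, compared by exact permutation over samples (scipy 1.17.1). Wilson or exact 95% intervals cover counting error only, and a count of 0 allows 3 reads. The fits were tested on simulated counts. Every member is named; likeness, related arms and marker lists followed set rules. The members and lists were chosen with earlier results of these data known. Depth means reads of listed miRNAs, since library totals were not used here.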

Additional observations from a re-analysis of the deposited data

Results flagged for a closer look

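Of 30 sets of values tested, 10 held a sample far from the others, where chance flags about 1 in 20. The sets share libraries and arms, and some hold mostly zeros, so 10 of 30 cannot be read as an excess over chance. For 4 arms A30P replicate 6, the deepest A30P library, stood apart, with 849 normalized counts of miR-103-3p, 47.0 of miR-16-5p, 0.174 of miR-15a-5p (1 read) and 1.04 of miR-497a-5p. A30P replicate 2 stood apart for miR-15b-5p at 20.1 normalized counts, which is 1 read, and for the share of miR-15b-5p in the reads of miR-15b-5p and miR-16-5p, at 50% of 2 reads. A30P replicate 3 had 28.1% of miR-16-5p in the reads of miR-103-3p and miR-16-5p.

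WT replicate 8 stood apart in 3 sets. It had 30.4 normalized counts of miR-195a-3p, the highest of the WT group. miR-15b-5p took 40.6% of its miR-15b-5p and miR-16-5p reads (39 of 96, exact 95% interval 30.7% to 51.1%), against 4.42% to 6.43% in the other WT libraries. miR-497a-5p took 62.5% of its miR-497a-5p and miR-195a-5p reads (10 of 16).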

How the results depend on the processing

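The signs of the 9 members' fold changes held in all 268 alternative values (each an arm under another setting); 245 kept their side of the threshold, 13 lost the call and 10 gained it, all 10 gains for miR-195a-3p. Members called lower, 8 in the reported fit, were 5 with a mean of at least 10, in edgeR with deposited size factors and in DESeq2, 4 in edgeR with TMM scaling (all libraries, or A30P replicates 3, 6 and 8 alone) and 3 by the authors' deposited table. All 9 arms were tested in that table and in edgeR on A30P replicates 3, 6 and 8 alone, against 6 or 7 in the others. Members called higher, 0 in the reported fit, were 1 (miR-195a-3p) with scaling to the total without miR-148a-3p and miR-151-3p, TMM scaling, a pseudocount of 10, the edgeR and DESeq2 fits, A30P replicates 3, 6 and 8 alone, leaving out A30P replicate 4 and the authors' deposited table. Leaving out each library gave 8 lower throughout and 0 to 1 higher, with 267 to 293 lower and 28 to 34 higher over all miRNAs. Over all miRNAs, 281 lower and 33 higher calls became 113 and 62 in edgeR with TMM scaling, 88 and 54 with those 3 A30P libraries alone, and 135 lower by the authors' deposited table. The cause was not tested.

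The miR-16-5p share against miR-103-3p was -1.57 percentage points in the reported test and 4.55 without the A30P libraries under 100000 reads (exact permutation p = 0.497) and ranged from -5.28 to -0.59 with each library left out (exact permutation p = 0.00799 to 0.996). With each library left out, the miR-107-3p share differed by -4.48 to -3.50 points and the miR-195a-5p share by -64.5 to -53.7, past the threshold each time. For miR-107-3p these tests, too, cannot tell a lower share from few reads. Replicate numbers did not pair the samples (correlations of same-numbered deviations -0.13 to 0.31, 1 of 7 best with its own number). With the replicate block 8 members fell and 0 rose, with a log2 fold change of -4.00 for miR-103-3p, and the paired miR-107-3p and miR-195a-5p shares differed by -3.97 and -51.9 points (exact sign-flip p = 0.0313 each). Since the numbers did not pair the samples, these values describe that setting only. For miR-195a-5p, with 6 A30P libraries to pair, this p is the smallest that the test can give. Log2 ratios between members, and their pseudocounts, were not run, as a single member has reads in every library.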
